A study of Homo sapiens with 28 samples.

Results

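The p50 knockout was compared with the cREL knockout in U937 cells 6 h after lipopolysaccharide (LPS), in 4 of the 28 libraries of the study. The 4 libraries were taken by genotype, treatment and replicate number from the labels: p50 replicates 1 and 2 and cREL replicates 1 and 2, all with LPS. U937 is an established human monocytic line derived from a histiocytic lymphoma. Every library came from a CRISPR-edited U937 clone, in which a p50, cREL, p52, RELB or p65 gene was knocked out, or from a control clone (CTR) that received non-specific guides. LPS was given at 500 ng/ml, and each clone also gave an untreated library at the same time point.

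Each genotype of the comparison was represented by 2 clones, so a replicate is a clone and each clone carries its own history of editing and outgrowth. Clones p50-1 and cREL-1 belonged to sample batch B, and clones p50-2 and cREL-2 to sample batch A, per the labels. The comparison was therefore made within batch, and every difference below is p50 minus cREL on the log2 scale, so that a positive value means a higher level in the p50 knockout. Unless stated, the edgeR p-values rest on a spread pooled over the libraries of all genotypes, not on that of these clones alone. The libraries of a clone with and without LPS entered that fit as separate samples, without a term for the clone. The 4 untreated libraries of the same clones and the 3 CTR libraries with LPS are given as context. CTR-2 belonged to batch B and CTR-1 and CTR-3 to batch C, so CTR levels set beside the knockouts are not corrected for batch, while the fitted differences from CTR include a batch term.

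NF-kB is a family of 5 subunits that bind DNA as dimers. Inhibitor proteins hold the dimers in the cytoplasm until a receptor such as TLR4, which senses LPS, triggers their release. p50 is made from the precursor encoded by NFKB1. It binds DNA but has no transactivation domain of its own, so it can repress as a homodimer and activate beside a partner. cREL, encoded by REL, carries a transactivation domain and is best known in lymphoid and myeloid cells for driving cytokine and survival genes.

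Many genes of the LPS response are bound by NF-kB in their promoters, and 3 such promoters are shown from 250 bases before to 50 bases after the start of transcription, since TNF, NFKBIA and TNFAIP3 are used below as readouts. The sequences are from RefSeq, build GRCh38.p14, and are written 5′ to 3′ on the strand of the gene: chr6:31575315-31575614 on the plus strand for TNF, chr14:35404700-35404999 on the minus strand for NFKBIA and chr6:137867009-137867308 on the plus strand for TNFAIP3. Capitals mark matches to GGGNNNTTCC or GGGNNTTCCC on either strand, which are forms of the NF-kB binding motif. The patterns overlap each other in part.
TNF: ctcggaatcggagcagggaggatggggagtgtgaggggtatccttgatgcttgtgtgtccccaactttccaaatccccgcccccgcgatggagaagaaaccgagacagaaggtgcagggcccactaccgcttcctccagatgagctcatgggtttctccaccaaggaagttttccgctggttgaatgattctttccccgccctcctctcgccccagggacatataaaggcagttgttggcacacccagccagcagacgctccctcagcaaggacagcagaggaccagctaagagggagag
NFKBIA: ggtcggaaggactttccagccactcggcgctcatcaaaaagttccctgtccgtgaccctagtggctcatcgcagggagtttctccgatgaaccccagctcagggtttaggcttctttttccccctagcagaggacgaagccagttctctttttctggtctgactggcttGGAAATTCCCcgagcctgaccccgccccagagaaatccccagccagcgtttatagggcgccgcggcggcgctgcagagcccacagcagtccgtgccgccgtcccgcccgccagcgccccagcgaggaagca
TNFAIP3: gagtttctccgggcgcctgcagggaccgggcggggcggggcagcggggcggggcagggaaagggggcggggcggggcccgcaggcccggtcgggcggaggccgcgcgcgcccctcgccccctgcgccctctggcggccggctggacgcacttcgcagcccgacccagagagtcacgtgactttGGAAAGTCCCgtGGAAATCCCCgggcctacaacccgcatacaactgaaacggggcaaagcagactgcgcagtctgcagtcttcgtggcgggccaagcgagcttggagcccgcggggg

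The NFKBIA window held 1 match, the TNFAIP3 window held 2, and the TNF window held 0 matches to these letters. Of 27305 promoters of the same length, 7.94% held a match. The share was 9.19% of the 11330 promoters of genes tested. It was 30.2% of the 63 promoters found for the 75 genes that LPS raised in CTR clones. Among the 20 genes of lowest p named below, 16 had a promoter in the table and 2 of these held a match.

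The 4 libraries held 14899145 to 19634204 estimated read counts, within the range of 12643438 to 22122428 over all 28 libraries. Mitochondrial messenger RNA took 3.38% to 3.97% of the counts of these 4 libraries, and the 10 most abundant genes 9.99% to 14%. Of 8 monocyte line markers, LYZ was the most abundant at a mean of 680 TPM, a length-corrected relative level, and CD14 reached at most 0.515 TPM. The summed level of these markers was 1035 to 1249 TPM in p50 libraries and 653 to 792 TPM in cREL libraries. Most of this sum was LYZ, at 983 and 765 TPM in p50 libraries and 530 and 444 TPM in cREL libraries. CEBPA went the other way, with 8.18 and 6.44 TPM in p50 libraries and 10.8 and 11.6 TPM in cREL libraries. The remaining markers overlapped between the groups. Markers of T and natural killer cells summed to 453 to 491 TPM in p50 libraries and 423 to 442 TPM in cREL libraries. This sum was mostly NKG7, at a mean of 439 TPM, while the CD3 chain genes CD3D and CD3E were at 0 in all 4 libraries. Of the 9 markers, 5 were below 1 TPM in all 4 libraries. The T cell receptor gene TRAC was at 1.85 to 2.21 TPM and IL7R at 7.29 to 14 TPM. The B, platelet, erythroid, epithelial, fibroblast and neutrophil lists each summed to under 10 TPM. In the endothelial list PECAM1, which monocytes also express, averaged 120 TPM and CDH5 was at 0. Levels were measured in bulk, so fewer cells of a kind and less RNA per cell cannot be told apart.

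Clone p50-2 stood apart before any comparison. Against the median of the 14 libraries with LPS, 921 of 9982 genes were 2-fold or more below it in p50-2 and 43 were 2-fold or more above. In p50-1 the counts were 68 below and 29 above, in cREL-1 they were 56 below and 41 above, and in cREL-2 they were 170 below and 87 above. Among the 10 LPS libraries of the other genotypes, 66 to 839 genes were 2-fold or more below, with a median of 178. The 921 genes had a median GC content of 54.7%, compared with 47.4% over all genes. Such a value was not particular to p50-2. In the other batch A libraries with LPS, the genes below had a median of 55.2% in RELB-1, 56.9% in p52-2, 52.3% in cREL-2 and 48.9% in p65-1. The part of GC content in the result was not tested. Against the median of the 14 untreated libraries, the same clone without LPS had 929 genes below and 97 above, and the 10 untreated libraries of the other genotypes had 57 to 1170 below.

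The targeted genes were examined first, because their messenger RNA bears on the labels. In p50 clones NFKB1 was at 6.83 TPM and 4.1 TPM, against 8.45 TPM and 4.91 TPM in cREL clones and 10.3 to 14.5 TPM in CTR clones, all with LPS. The p50 and cREL libraries overlapped on this scale. On the CPM scale, the count relative to library size, which does not correct for the length of the transcripts in use, NFKB1 was at 10.9 and 6.65 CPM in p50 clones and 21.4 and 13.7 CPM in cREL clones. The fitted difference was -1.0 ± 0.30 (log2 ± SE; edgeR quasi-likelihood test, adjusted p = 0.804), and -0.27 when each gene's effective length in each library was taken into account. Without LPS the difference was -1.58 ± 0.31 (adjusted p = 0.375), and it passed in DESeq2 (adjusted p = 0.00296). A guide-edited gene can still be transcribed, so messenger RNA does not show the loss of the protein.

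REL was lower in the cREL clones. It was at 11.6 TPM and 6.32 TPM in p50 clones and at 7.11 TPM and 2.49 TPM in cREL clones, against 12.5 to 14.7 TPM in CTR clones. The TPM ranges overlapped, because p50-2 lay below cREL-1. In CPM the p50 clones had 33.1 and 29.9 and the cREL clones 23.9 and 8.19, which did not overlap. The difference in CPM was 0.47 in batch B and 1.85 in batch A, and the fitted difference was 1.06 ± 0.34 (edgeR, adjusted p = 0.804). REL lies at chr2:60881521-60931610 (GRCh38, GENCODE 29), inside a stretch of chromosome 2 on which most genes were low in cREL-2, described below.

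Of the other subunits, RELB was at 4 TPM and 3.7 TPM in p50 clones and 9.25 TPM and 3.12 TPM in cREL clones, so the groups overlapped in TPM. In CPM both p50 clones were below both cREL clones, with 4.29 and 1.96 against 12.1 and 4.91 (fitted difference -1.42 ± 0.55, edgeR adjusted p = 0.804, and -0.50 with the effective length). RELB and NFKB2, the precursor gene of p52, were low in both knockouts compared with CTR. NFKB2 averaged 1.15 ± 0.26 TPM in p50 clones and 0.993 ± 0.00559 TPM in cREL clones (SD, n = 2 each), against 6.51 ± 1.2 TPM in CTR clones (SD, n = 3). RELA, which encodes p65, averaged 27.3 ± 3.01 TPM in p50 clones and 28.8 ± 1.5 TPM in cREL clones (SD, n = 2 each).

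**Figure D1:**
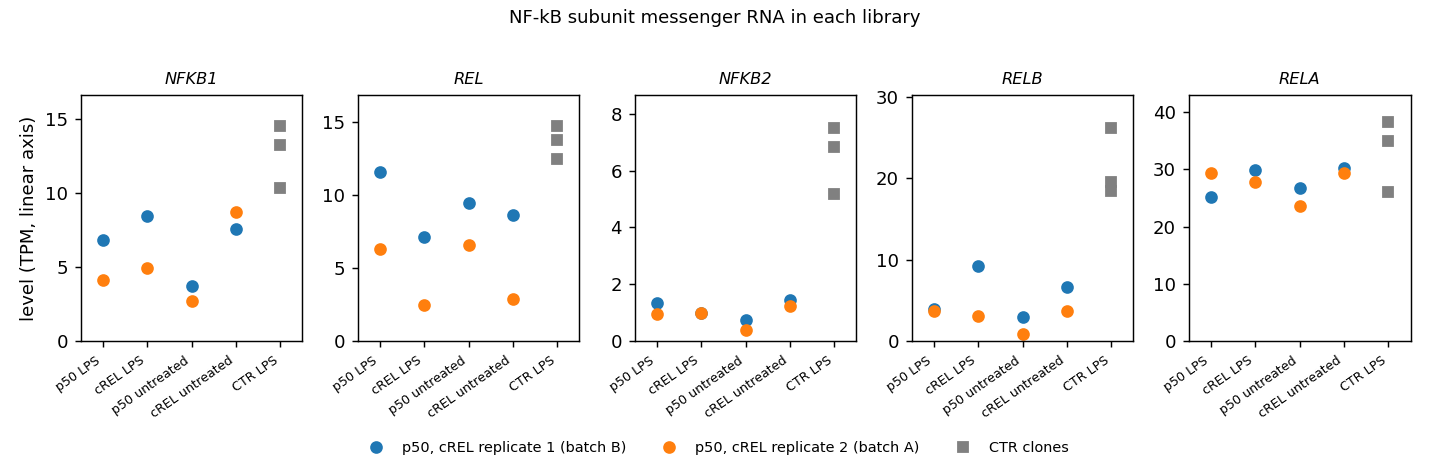
Level of each NF-kB subunit messenger RNA (TPM, linear axis) in every p50 and cREL library with and without LPS and in the 3 CTR libraries with LPS; 1 point is 1 library, coloured by replicate number and batch. NFKB2 and RELB sat below every CTR library in both knockouts, and REL was lowest in cREL-2, at 2.49 TPM with LPS.

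No gene passed the test between the knockouts with LPS. In the edgeR quasi-likelihood test 0 of 18624 genes (0%) had an adjusted p under 0.05 in either direction, and 1119 genes (6.01%) had an unadjusted p under 0.05, of which 386 (2.07%) were higher and 733 (3.94%) lower in p50. DESeq2 called 11 genes, 7 higher and 4 lower, and limma voom with the clone as a random effect called 1, VIM. The values below are therefore descriptions of these clones, and the direction of a named gene is the one both batches shared unless stated.

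Among the 10 genes of lowest p that were higher in p50 and averaged 5 CPM or more were structural genes, the LPS receptor and a cytokine. USP44 and PIK3R6 at this end and C7orf55-LUC7L2 at the other had p as low but averaged less. They are described below. VIM, at chr10:17228259-17237593, encodes the intermediate filament protein vimentin. It was at 747 and 630 CPM in p50 clones and at 312 and 277 CPM in cREL clones. The difference was 1.26 in batch B and 1.18 in batch A, and the fitted difference was 1.22 ± 0.22 (edgeR, adjusted p = 0.275). The same gap was present without LPS, where p50 clones had 720 and 568 CPM and cREL clones 326 and 273 CPM. VIM was at 436 to 751 CPM in CTR clones with LPS, and over the alternative settings its difference ranged from 1.14 to 1.33 with adjusted p from 2.7e-05 to 1.

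AHNAK, at chr11:62433542-62556235, encodes a very large scaffold protein. It was at 122 and 153 CPM in p50 clones and at 78.1 and 57.5 CPM in cREL clones (difference 1.01 ± 0.20, edgeR adjusted p = 0.492). The groups did not overlap, and the CTR clones had 77.4 to 99.7 CPM. TLR4, the receptor for LPS itself, was at 147 and 106 CPM in p50 clones and at 97.9 and 61.7 CPM in cREL clones, against 138 to 143 CPM in CTR clones. Its difference was 0.58 in batch B and 0.78 in batch A (fitted 0.68 ± 0.17, edgeR adjusted p = 0.644). The other genes at this end were ZNF460, CDC42EP3, ARSG, TMEM159, GLIPR1 and RAB7B, with fitted differences of 0.86 to 1.21.

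At the other end, OTULINL, a relative of the linear ubiquitin hydrolase OTULIN, was at 38.7 and 27.0 CPM in p50 clones and at 73.0 and 72.6 CPM in cREL clones. The difference was -0.91 in batch B and -1.42 in batch A (fitted -1.19 ± 0.26, edgeR adjusted p = 0.492), and the CTR clones lay between the groups at 43.4 to 50.8 CPM. FBXO10, an F-box protein of a ubiquitin ligase that marks BCL2 for degradation, was at 13.2 and 6.19 CPM in p50 clones and at 26.9 and 20.2 CPM in cREL clones (fitted -1.31 ± 0.29, edgeR adjusted p = 0.496). DAPK1, a death-associated protein kinase, was at 46.8 and 35.7 CPM in p50 clones and at 86.4 and 65.9 CPM in cREL clones. Neither pair overlapped.

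FAM83D, DAPK1, CFL2, FBXO43 and INSIG1 also showed both p50 clones below both cREL clones, with fitted differences of -1.78 to -0.88. SRP68, MOB2 and RSC1A1 had the same sign in both batches but overlapped between groups, because cREL-2 lay below p50-1. INSIG1, which holds the sterol sensor in the endoplasmic reticulum, was at 95.1 and 45.0 CPM in p50 clones and at 131 and 129 CPM in cREL clones (-0.98 ± 0.27, edgeR adjusted p = 0.804). CDC42EP3 and OTULINL each lie in a 10 Mb window whose median was low in 1 of the 4 clones, described below.

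**Figure D2:**
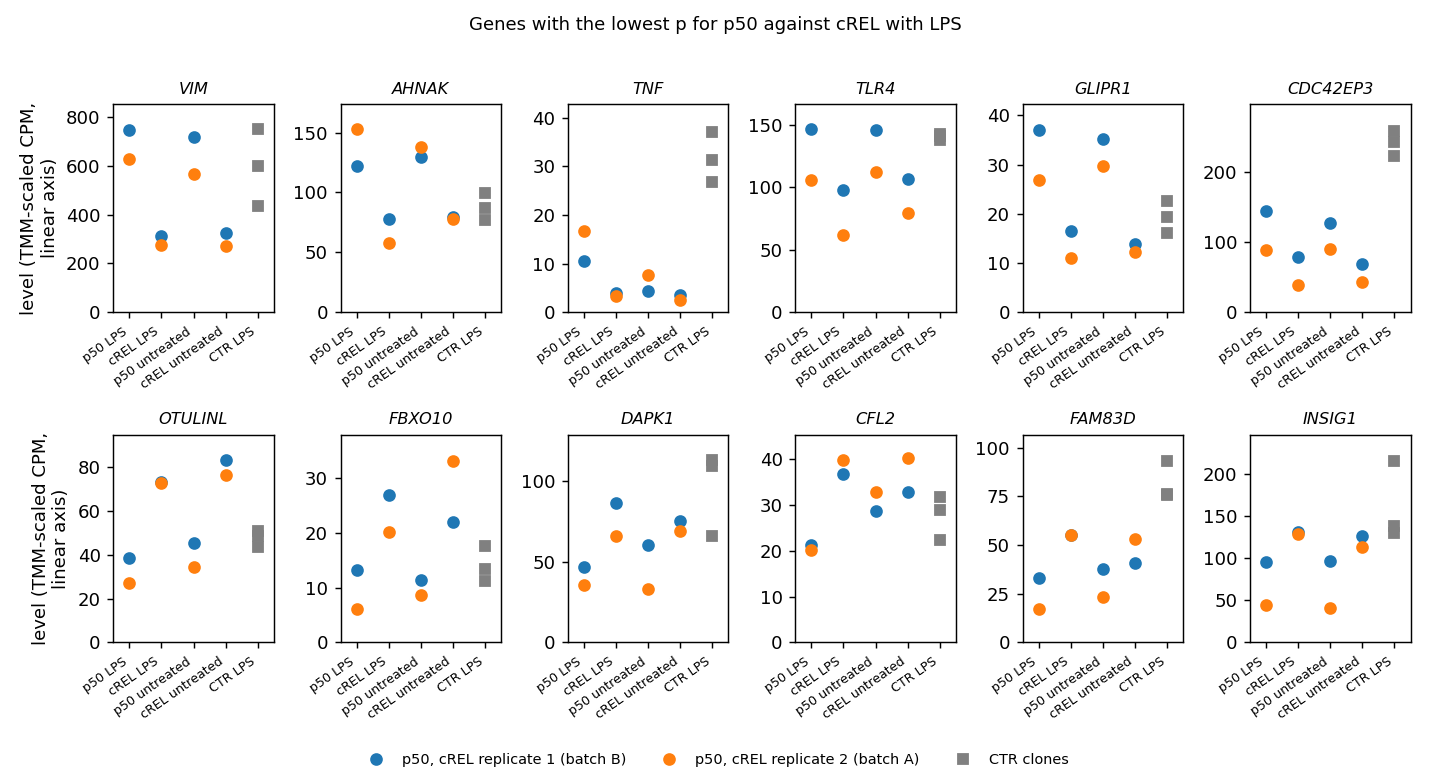
Level (CPM scaled by library size factors, linear axis) of 12 genes named by lowest p with LPS, in p50 and cREL libraries with and without LPS and in CTR libraries with LPS; 1 point is 1 library. In each panel both p50 libraries with LPS lie on 1 side of both cREL libraries with LPS, and most panels show the same order without LPS. The panels were picked from the genes so named, and SRP68, MOB2 and RSC1A1, which overlapped between the groups, are not shown.

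TNF, the archetypal NF-kB target cytokine, was the only member of the cytokine list that was 2-fold or more higher in p50 in both batches, and LTB and LIF were 2-fold or more lower in both. Over all genes tested, 357 (1.92%) met that mark and 332 (1.78%) were 2-fold or more lower in both batches. Among the 9908 genes averaging 5 CPM or more, 13 were higher and 28 lower by that mark. LTB and LIF were near the floor. LTB was at 0.33 and 0.0652 CPM in p50 clones and 1.01 and 0.634 CPM in cREL clones. LIF was at 0 CPM in both p50 clones and at 0.569 and 1.06 CPM in cREL clones. TNF was at 10.6 and 16.6 CPM in p50 clones and at 3.92 and 3.28 CPM in cREL clones, against 26.8 to 37.1 CPM in CTR clones. All 4 knockout libraries were below the CTR libraries, and the groups did not overlap. The difference was 1.40 in batch B and 2.30 in batch A, with a fitted value of 1.89 ± 0.43 (edgeR, adjusted p = 0.496; DESeq2, adjusted p = 0.0208). Without LPS the p50 clones had 4.37 and 7.62 CPM and the cREL clones 3.57 and 2.48 CPM.

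The change of TNF with LPS was 1.18 in the p50 knockout and 0.24 in the cREL knockout, against 2.51 in CTR clones (log2 fold). The difference between the p50 and cREL responses was 0.93 ± 0.60 (edgeR, adjusted p = 1), so the 2 responses were not shown to differ. Against CTR with LPS, TNF was lower by a log2 difference of -1.09 in p50 (edgeR, adjusted p = 0.36) and of -2.98 in cREL (adjusted p = 0.00501). These comparisons share the CTR libraries. Of 18624 genes, 24 (0.129%) passed between p50 and CTR, 3 (0.0161%) higher and 21 (0.113%) lower in p50. Between cREL and CTR 37 (0.199%) passed, 5 (0.0268%) higher and 32 (0.172%) lower in cREL.

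Of 20 cytokine genes tested, 5 had both p50 libraries above both cREL libraries (25%) and 4 below (20%). Over all genes these shares were 14.5% (2696 genes) and 15.4% (2864 genes). IL1B, which encodes interleukin 1 beta, was at 71.0 and 52.3 CPM in p50 clones and at 38.6 and 19.8 CPM in cREL clones, against 195 to 394 CPM in CTR clones (difference 1.12 ± 0.55, edgeR adjusted p = 0.833). IL1A, IL1RN and TNFSF10 were the other members above, and LTB, CSF2, TGFB1 and LIF were below. The cytokine median was 0.12, compared with -0.02 over all genes.

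Of 19 chemokines tested, 2 were above (10.5%) and 2 below (10.5%), compared with 14.5% and 15.4% of all genes, and the list median was -0.06. CXCL8, the neutrophil attractant interleukin 8, was at 193 and 167 CPM in p50 clones and 261 and 150 CPM in cREL clones, against 552 to 1784 CPM in CTR clones, and the groups overlapped. CCL20, an attractant of CCR6-bearing lymphocytes, was at 6.14 and 5.22 CPM in p50 clones and 0.695 and 1.8 CPM in cREL clones (2.29 ± 0.84, edgeR adjusted p = 0.804). CCL7, a monocyte attractant, was at 21.1 and 8.8 CPM in p50 clones and 8.15 and 4.12 CPM in cREL clones. CCL7 and CCL20 were the 2 chemokines that were 2-fold or more higher in both batches, and the lower p50 value of CCL7 was close to the higher cREL value.

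CCL4, a macrophage attractant, rose with LPS in both knockouts. It was at 14.4 and 6.58 CPM in p50 clones with LPS and at 0.331 and 0.117 CPM without (log2 response 5.50 ± 0.58, edgeR adjusted p = 1.3e-04). In cREL clones it was at 13 and 11 CPM with LPS and at 0.135 and 0.0637 CPM without (log2 response 6.83 ± 0.65, edgeR adjusted p = 2.3e-05). The 2 responses differed by -1.33 ± 1.05 (adjusted p = 1), and the untreated values rest on a few reads. CCL4L2, a near-identical copy whose reads may be split with CCL4, also passed in both. NFKBIZ, an atypical inhibitor-family protein that coactivates secondary response genes, passed in p50, with a log2 response of 2.46 ± 0.41 (edgeR, adjusted p = 0.0466), and had 1.98 ± 0.40 in cREL (adjusted p = 0.517). Its responses differed by 0.48 ± 0.56 (adjusted p = 1). In all, 3 of 18624 genes (0.0161%) passed for the LPS response in p50 and 2 (0.0107%) in cREL, against 76 (0.408%) in CTR, which had 3 clones. That fit has no term for the clone, although each clone was measured with and without LPS. With each clone as a block, a fit added after these results were seen, 6 genes passed in p50, 4 in cREL and 236 in CTR, and the 3 and 2 genes above were among them. The 6 in p50 were CCL4, CCL4L2, CXCL2, IL1B, NFKBIZ and TNFAIP3, and the 4 in cREL were CCL4, CCL4L2, CXCL2 and IL1B. IL1B was at 71.0 and 52.3 CPM in p50 clones with LPS and at 12.1 and 8.32 CPM without. In cREL clones it was at 38.6 and 19.8 CPM with LPS and at 4.78 and 2.61 CPM without. Its log2 response in that fit was 2.60 ± 0.32 in p50 (edgeR, adjusted p = 0.0147) and 2.97 ± 0.36 in cREL (adjusted p = 0.0135), compared with adjusted p = 0.806 and 0.517 without the block. TNFAIP3 had 2.56 ± 0.36 in p50 (adjusted p = 0.0413) and 1.18 ± 0.35 in cREL (adjusted p = 1). Its untreated levels, given below, were lower in the p50 clones.

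The 75 genes that LPS raised in CTR clones had a median log2 response of 0.58 in p50 and 0.36 in cREL, against 2.02 in CTR. These genes were chosen by their CTR response, so the CTR value only describes the choice. Compared directly with LPS, their median p50 minus cREL difference was 0.12, with -0.00 in batch B and 0.16 in batch A. Both p50 libraries were above both cREL libraries for 19 of them (25.3%) and below for 12 (16%). Over all genes the shares were 14.5% and 15.4%. The 19 included IL1B, TNF, IRAK2, GCH1, IL2RA and SOD2, and the 12 included PIM1, PLAU, HIF1A, BIRC3 and ACSL1. At an unadjusted p under 0.05 there were 3 higher and 3 lower.

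SOD2, the mitochondrial superoxide dismutase, was at 415 and 413 CPM in p50 clones and at 367 and 225 CPM in cREL clones, against 831 to 1684 CPM in CTR clones. PIM1, a survival kinase, was at 297 and 99.9 CPM in p50 clones and at 378 and 381 CPM in cREL clones, against 1191 to 2045 CPM in CTR clones. The difference of PIM1 was -0.35 in batch B and -1.93 in batch A, so it rested mostly on p50-2. PIM1 lies at chr6:37170203-37175426, in the 10 Mb window next to the low chromosome 6 window of p50-2 described below. The part of position was not tested. PLAU, the urokinase plasminogen activator, was at 87.0 and 86.5 CPM in p50 clones and 124 and 132 CPM in cREL clones (-0.56 ± 0.20, edgeR adjusted p = 0.804).

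In the list of 17 NF-kB feedback and inhibitor genes, not all of which only restrain NF-kB, ZC3H12A was above (5.88%). NFKBIB, BCL3 and BIRC3 were below (17.6%). Of all genes, 14.5% were above and 15.4% below. The other 13 overlapped, and the median was -0.13. NFKBIA, which encodes the inhibitor IkB alpha, was at 111 and 50.1 CPM in p50 clones and at 101 and 72.1 CPM in cREL clones, against 228 to 301 CPM in CTR clones. TNFAIP3, the ubiquitin-editing enzyme A20, was at 46.3 and 37.0 CPM in p50 clones and at 44.3 and 23.4 CPM in cREL clones, against 157 to 200 CPM in CTR clones. Its log2 LPS response was 2.52 in p50 and 1.18 in cREL, which differed by 1.33 at an unadjusted p of 0.0352 in edgeR and did not pass after adjustment. Without LPS TNFAIP3 was at 5.63 and 8.56 CPM in p50 clones and at 11.9 and 16.9 CPM in cREL clones. The gap in response thus lay mostly in the untreated levels. With LPS, NFKBIA and TNFAIP3 both overlapped between the knockouts and lay below every CTR library.

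In the TLR4 pathway, 6 of 31 genes were above (19.4%) and 4 below (12.9%), compared with 14.5% and 15.4% of all genes. The list median was 0.02. TLR4, the adaptor-linked kinase gene IRAK2, TRAF6, MAP3K7, IKBKE and TLR1 were above. LY96, the partner that holds LPS on the receptor, was below, with TAB2, IKBKG and TOLLIP. MYD88, the main adaptor, was at 158 and 180 CPM in p50 clones and 171 and 145 CPM in cREL clones. IRAK1, on the X chromosome, was at 205 and 87.2 CPM in p50 clones and 191 and 177 CPM in cREL clones, so its low value was in p50-2 only.

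Of 21 genes of sterol synthesis tested, 0 were above and 9 were below (42.9%, compared with 15.4% of all genes), and none passed. The list median was -0.27 in the fit, -0.12 in batch B and -0.20 in batch A, and -0.12 without LPS. The 9 were HMGCS1, IDI1, FDFT1, LSS, CYP51A1, DHCR7, INSIG1, MSMO1 and NSDHL. IDI1, an isomerase of the isoprenoid steps, was at 97.8 and 163 CPM in p50 clones and 199 and 222 CPM in cREL clones (-0.69 ± 0.33, edgeR adjusted p = 0.829). HMGCS1, which starts the pathway, was at 23.6 and 32.1 CPM in p50 clones and at 33.6 and 35.5 CPM in cREL clones, so the gap was small. FDPS, an abundant member, overlapped.

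Of 20 genes of the unfolded protein and integrated stress responses, 2 were above (10%) and 8 below (40%), with a median of -0.17. Of all genes, 14.5% were above and 15.4% below. HSPA5, the chaperone BiP, was at 850 and 1086 CPM in p50 clones and at 1265 and 1376 CPM in cREL clones (-0.46 ± 0.15, edgeR adjusted p = 0.804). Its values without LPS were 861 and 1074 CPM in p50 clones and 1241 and 1459 CPM in cREL clones. XBP1, ATF3, DNAJB9, HSP90B1, TRIB3, SESN2 and SDF2L1 were also below, and ASNS and PPP1R15A above.

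Of 49 interferon-stimulated genes, 6 were above (12.2%) and 14 below (28.6%), compared with 14.5% and 15.4% of all genes. Their median was -0.05. The levels of several were low in both knockouts. IFIT1 was at 2.51 and 2.74 CPM in p50 clones and 5.56 and 4.17 CPM in cREL clones, whereas the CTR clones themselves ran from 3.94 to 779 CPM. Of 21 adhesion and costimulation genes, 7 were above (33.3%) and 1 below (4.76%), compared with 14.5% and 15.4% of all genes. The 1 below was CD83, and the list median was 0.13. CD44, a hyaluronan receptor, was at 333 and 277 CPM in p50 clones and 232 and 242 CPM in cREL clones.

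MHC class II was the list in which the 2 clone pairs parted most. Its median was -1.30 in batch B and 0.16 in batch A, and -1.06 in the fit, over 15 genes. HLA-DRA was at 132 and 18.8 CPM in p50 clones and at 703 and 40.6 CPM in cREL clones. CD74, the invariant chain, was at 195 and 104 CPM in p50 clones and at 480 and 66.5 CPM in cREL clones. The clone cREL-1 had the highest HLA-DRA and CD74 of the 4, and the CTR clones had HLA-DRA at 50.2 to 262 CPM. The sign for CD74 and HLA-DRB1 differed between batches. HLA-DRA was lower in p50 in both batches, by a log2 difference of -2.41 in batch B and -1.11 in batch A. Its fitted difference was -2.21, which did not pass, and 0.86 without clone cREL-1. That 0.86 is not a within-batch value, because p50-1 then had no cREL partner in batch B. The same order held without LPS, with HLA-DRA at 148 and 18.7 CPM in p50 clones and 681 and 27.8 CPM in cREL clones.

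Granule protein genes and other genes of immature myeloid cells were measured because U937 cells keep some of that program. Of 16 tested, 6 were below (37.5%) and 2 above (12.5%), compared with 15.4% and 14.5% of all genes. The 6 were ELANE, CTSG, SRGN, PRSS57, GFI1 and MYB, and the 2 were RNASE2 and LYZ. GFI1 and MYB encode transcription factors, not granule proteins. CTSG, the protease cathepsin G, was at 537 and 977 CPM in p50 clones and at 1966 and 2219 CPM in cREL clones (-1.46 ± 1.00, edgeR adjusted p = 0.932). LYZ, lysozyme, went the other way, with 927 and 787 CPM in p50 clones and 492 and 443 CPM in cREL clones (0.87 ± 0.47, edgeR adjusted p = 0.865). Both gaps were present without LPS. For LYZ and CTSG the CTR clones with LPS spread from 390 to 2307 CPM and from 189 to 880 CPM, which was wide next to the gaps.

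Immediate early genes had a median of -0.42 in the fit, from 0.07 in batch B and -0.69 in batch A. Of 25, 4 were above (16%) and 5 below (20%). Over all genes 14.5% were above and 15.4% below, which also applies to the lists that follow. Glycolysis and hypoxia genes had a median of 0.15, with 6 of 26 above (23.1%) and 1 below, PFKFB3. Survival and apoptosis genes had 3 of 22 above (13.6%) and 7 below (31.8%). The 7 below were BCL2, BCL2L1, BCL2A1, BAX, BBC3, PIM1 and PIM3, and the 3 above were CASP8, SOD2 and IER3. Proliferation genes had 0 of 26 above and 5 below (19.2%), among them MKI67 and MCM2. Medians of the remaining lists lay between -0.09 and 0.17.

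**Figure D3:**
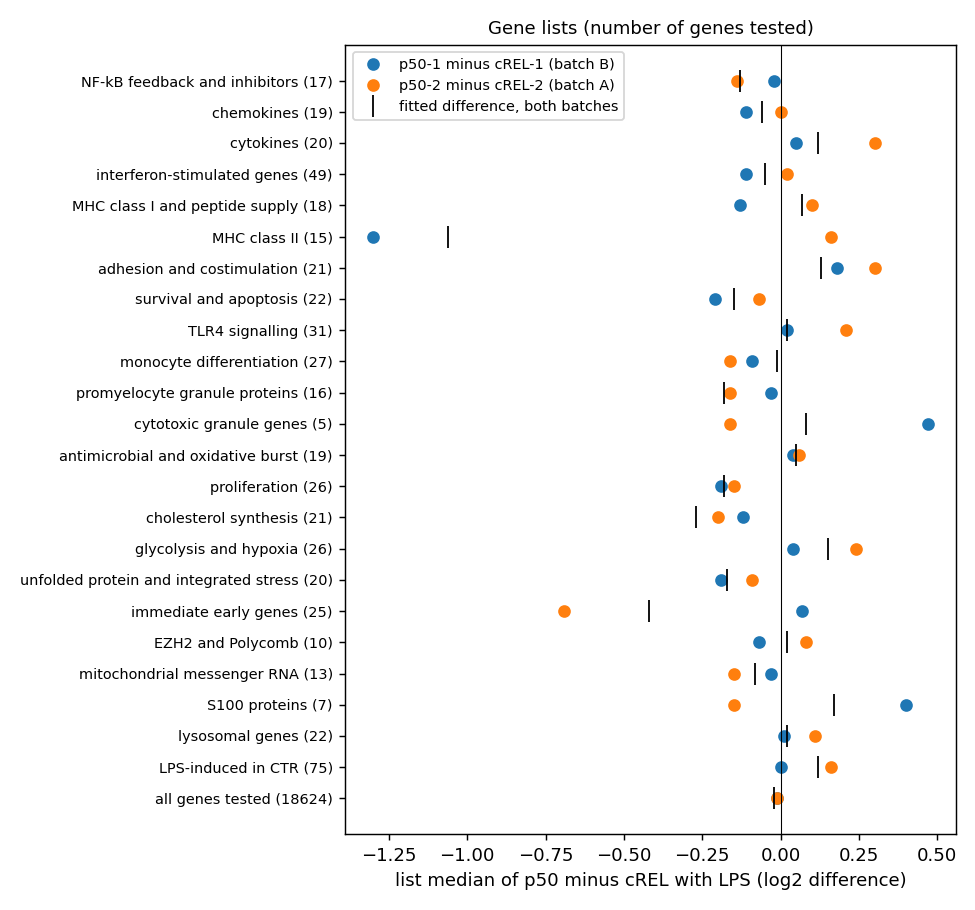
Median p50 minus cREL difference (log2) with LPS of each gene list, separately for the clone pair of batch B and of batch A, with a black tick for the fitted value. MHC class II reached -1.30 in batch B and 0.16 in batch A, and most other lists lay close to the median of all genes, -0.02.

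The 2 clone pairs were compared gene by gene. Across 18624 genes the Pearson correlation of the batch B difference with the batch A difference was 0.0812, and it was 0.169 over the 9908 genes with a mean of at least 5 CPM. These are correlations across genes of 4 libraries, and genes are not independent replicates. The differences had an SD of 0.39 in batch B and 0.694 in batch A. Within a clone pair, the difference with LPS followed the difference without LPS more closely, with a correlation of 0.467 in batch B and 0.789 in batch A. The libraries with and without LPS of a pair come from the same clones.

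In batch B, 86 of the 9908 genes were 2-fold or more higher and 105 lower in p50. In batch A the counts were 155 higher and 900 lower. Of the 900, p50-2 was 2-fold or more below the median of all LPS libraries in 708, cREL-2 was 2-fold or more above it in 50, and 668 were also 2-fold or more lower without LPS. Both batches shared 13 higher genes, which are 15.1% of the batch B genes and 8.39% of the batch A genes. They shared 28 lower genes, which are 26.7% and 3.11%. In 11 genes the batches went opposite ways by 2-fold or more.

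The 13 shared higher genes held VIM, TNF, CCL7, GLIPR1, ICAM3, ANXA1 and DNAJC15, and the 28 shared lower genes held CTSG, HLA-DRA, LAMP1, RAC1, RELB, FBXO10 and FBXO43. ANXA1, the glucocorticoid-regulated annexin, was at 555 and 425 CPM in p50 clones and 267 and 185 CPM in cREL clones. RAC1, a small GTPase of the cytoskeleton, was at 80.3 and 23.7 CPM in p50 clones and 218 and 194 CPM in cREL clones, against 25.5 to 106 CPM in CTR clones. LAMP1, a lysosomal membrane protein, was at 18.9 and 3.91 CPM in p50 clones and 39.4 and 43.2 CPM in cREL clones. In both genes the cREL clones were close together and p50-2 was the lowest of the 4. Without LPS, RAC1 was at 147 and 29.4 CPM in p50 clones and 187 and 170 CPM in cREL clones. LAMP1 without LPS was at 35.9 and 7.03 CPM in p50 clones and 30.8 and 31.1 CPM in cREL clones, so only p50-2 was lower.

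DNAJC15 and USP44 were measured in p50 clones and at or near 0 in cREL clones. DNAJC15, a mitochondrial co-chaperone, was at 14.8 and 16.3 CPM in p50 clones and at 0.0632 and 0.0528 CPM in cREL clones, a level of about 1 read. It was at 13.3 and 10.3 CPM in 2 CTR clones and at 0 in the third CTR clone, so loss of this transcript was not particular to the cREL knockout. USP44, a deubiquitinase, was at 3.5 and 4.43 CPM in p50 clones and at 0.0632 and 0 CPM in cREL clones, against 0.415 to 1.78 CPM in CTR clones. PIK3R6, a regulatory subunit of a myeloid PI3 kinase, was at 5.74 and 6.06 CPM in p50 clones and at 1.52 and 0.793 CPM in cREL clones (2.36 ± 0.56, edgeR adjusted p = 0.496; DESeq2, adjusted p = 0.0435). Without LPS PIK3R6 was at 6.76 and 3.99 CPM in p50 clones and at 2.42 and 3.18 CPM in cREL clones. The readthrough transcript C7orf55-LUC7L2 was at 0 in both p50 clones with LPS and at 3.41 and 4.12 CPM in cREL clones. Without LPS it was at 2.98 and 2.29 CPM in p50 clones and at 2.22 and 5.48 CPM in cREL clones. It overlaps LUC7L2, so its reads may be split between the genes.

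**Figure D4:**
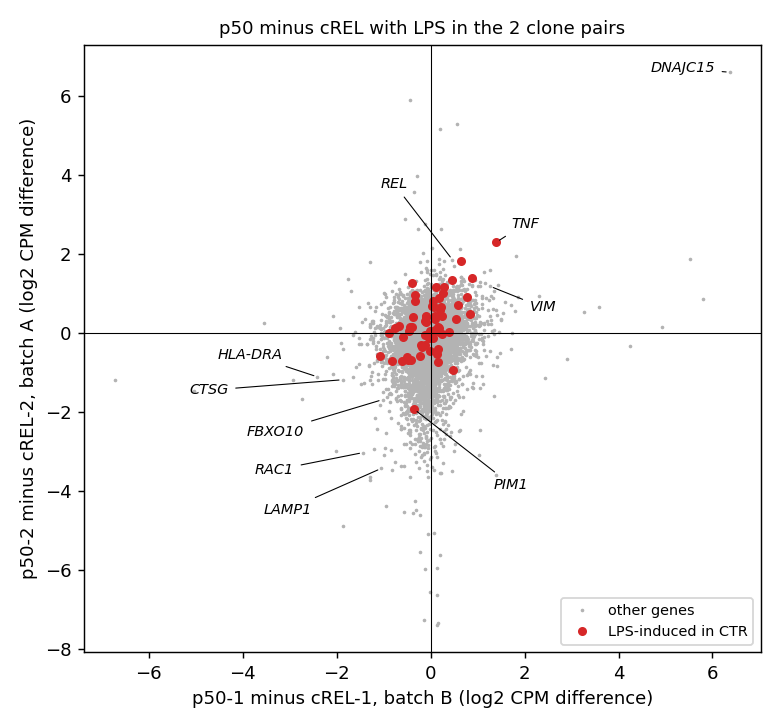
Difference p50 minus cREL with LPS in batch A against the same difference in batch B (log2 CPM), for 9908 genes with a mean of at least 5 CPM, with genes raised by LPS in CTR in red. The cloud is elongated downwards along the batch A axis, where 900 genes were 2-fold or more lower, compared with 105 in batch B.

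Part of the batch A difference followed position on the chromosomes. The genome was divided into 273 windows of 10 Mb with at least 10 genes, and the median departure of each window from all libraries of the same treatment was taken in each clone. Clones p50-1 and cREL-1 had 0 windows beyond 0.3 (log2) in both treatments. Clone p50-2 had 11, of which 4 were higher and 7 lower. In the window at 40 to 50 Mb of chromosome 6, 56 of 58 genes were lower, and the median was -0.56 with LPS and -0.70 without. On the X chromosome 4 windows between 110 and 160 Mb had medians of -0.43 to -0.61 with LPS, and the one at 100 to 110 Mb had 0.36.

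Clone cREL-2 had 7 such windows, all on chromosome 2. From 10 to 80 Mb, 6 of them were low, with medians of -0.37 to -0.79 with LPS, and the window of REL at 60 to 70 Mb had -0.45 over 43 genes. The adjoining window at 80 to 90 Mb was high, with a median of 1.14 with LPS and 1.36 without, and 26 of its 27 genes were higher. The p50 minus cREL difference of REL in batch A was 1.85, and the median of its window in the same pair was 0.50. Clone cREL-1 showed no such stretch and had REL at 23.9 CPM. DNA copy number was not measured here, and its part was not tested.

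In the p50 minus cREL difference, window medians ran from -1.38 to 0.85 in batch A, with 21 windows beyond 0.3, and from -0.30 to 0.33 in batch B, with 2 beyond. Windows of 5 Mb gave 15 in p50-2, 11 in cREL-2 and 0 in p50-1 and cREL-1, of 359. Other clones of the study also had such windows, up to 28 in CTR-1. Among the genes whose windows were looked up, REL, RRM2, CDC42EP3, OTULINL, IRAK1, IKBKG, MAP3K7, NSDHL, PLEK, SRBD1 and PLXNA3 lay in such a window of p50-2 or cREL-2. PLEK, which encodes pleckstrin, was at 1073 and 1161 CPM in p50 clones and at 1820 and 1072 CPM in cREL clones.

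**Figure D5:**
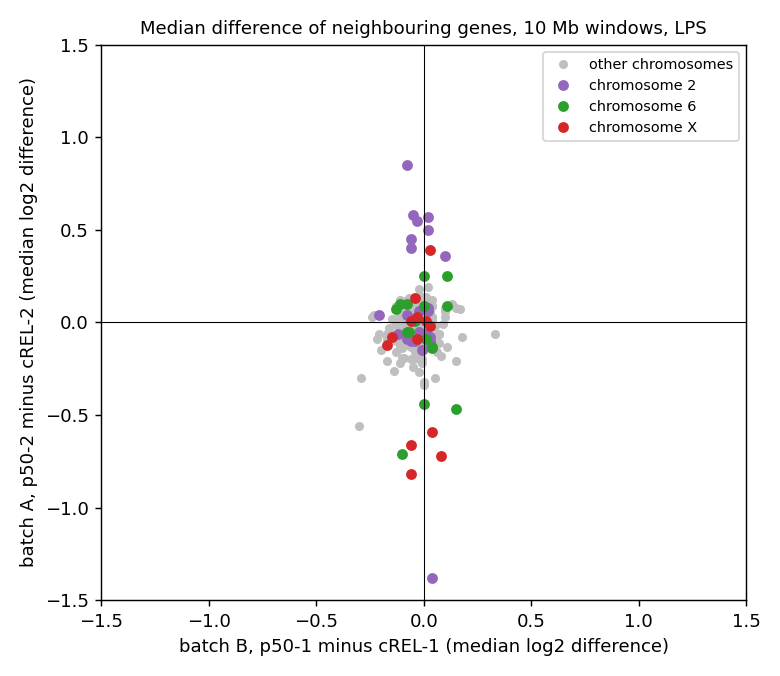
Median p50 minus cREL difference of the genes in each 10 Mb window with LPS, batch A against batch B (log2), with chromosomes 2, 6 and X coloured. Windows spread from -1.38 to 0.85 along the batch A axis and from -0.30 to 0.33 along the batch B axis.

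Without LPS the same 4 clones gave 0 of 18624 genes with an adjusted p under 0.05 in edgeR, 945 (5.07%) at an unadjusted p under 0.05, of which 316 (1.7%) were higher and 629 (3.38%) lower in p50, and 14 in DESeq2. The lowest p at the higher end were those of VIM, NRIP3 and SRBD1, and at the lower end those of NFKB1, FBXO10 and PLAU. PLAU was at 57.8 and 52.9 CPM in p50 clones and at 91.1 and 117 CPM in cREL clones without LPS. SRBD1 was at 15.7 and 32.2 CPM in p50 clones and at 11.3 and 10.9 CPM in cREL clones without LPS, and overlapped with LPS.

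The difference between the knockouts in their response to LPS was tested directly. In edgeR 0 of 18624 genes passed, 321 (1.72%) had an unadjusted p under 0.05, and DESeq2 called 1, RGS1. Of the 321, the p50 minus cREL difference of the responses was positive for 183 (0.983%) and negative for 138 (0.741%). The sign alone does not say which response was larger in size. The named genes with a positive difference were WDTC1, CNTROB and PLXNA3, and those with a negative one were ARNTL2, RERE and SRBD1. PLXNA3, a semaphorin receptor, had a log2 response of 0.10 in p50 and -1.03 in cREL. ARNTL2, a clock-related transcription factor, was at 5.67 and 2.74 CPM in p50 clones with LPS, against 7.62 and 7.56 CPM without. In cREL clones it was at 9.36 and 6.34 CPM with LPS, against 5.39 and 3.06 CPM without (difference of responses -1.89, edgeR unadjusted p = 0.00662).

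The counts depended on single clones. Left with p50-2 alone for the p50 knockout, edgeR called 67 genes with LPS, 1 higher and 66 lower in p50, and 105 without LPS. Left with cREL-2 alone for the cREL knockout, it called 17 with LPS, of which 10 lay on chromosome 2 and REL was 1 of them. Without p50-2 it called 0 with LPS, and without cREL-2 it called 1. In each of these fits the lone clone was assumed to vary like the clones of the other groups. Of the genes called with LPS when p50-2 stood alone, chromosome 6 held more than any other chromosome. Those on chromosome 6 were all lower in p50, and PIM1 was among them.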

How the data were processed

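Polyadenylated RNA was amplified from a small input and sequenced from both ends, per the labels' protocols. Per the submitters' processing notes the tools were FastQC 0.11.7 and Salmon 0.11.3 with build GRCh38. Annotation release and run options: not given in the sources used here. The authors deposited estimated counts per gene symbol, not scaled, with 46.7% to 54.8% of non-zero values whole (tolerance 1e-6). They also deposited TPM, scaled per library, and effective lengths in bases. Symbols matched GENCODE 29 in 56809 of 56809 cases. The library kit does not mark strand, so overlapping antisense genes are not separated.

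Estimated counts were rounded and filtered with filterByExpr (minimum count 10, minimum total 15), which left 18624 genes. edgeR 4.0.16 (R 4.3.3) was run as a robust quasi-likelihood fit of all 28 libraries with 12 groups of genotype and treatment and an additive batch term (14 residual degrees of freedom; biological coefficient of variation 31.7%). P-values were adjusted by Benjamini-Hochberg over all genes, with a threshold of 0.05. CPM used TMM factors, and differences within a batch used log2 CPM with a prior count of 2. DESeq2 1.42.0, limma 3.58.1 voom with the clone as a random effect (correlation 0.355) and other settings were alternatives. The fitting script was tested on simulated data.

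Replicates 1 share batch B and replicates 2 share batch A per the labels, which is where the pairing comes from; the deviations of p50-1 and cREL-1 from their group means correlated at 0.146 across 18624 genes. Replicates correlated at 0.952 for p50 and 0.966 for cREL with LPS.

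Genes were named by rule: the 5 subunits; up to 10 genes from either end with LPS, and 3 in the other comparisons, filled by lowest p where none passed, among genes averaging 5 CPM or more that had the same sign in both batches and no clone-type name; and members of 23 gene lists that passed, were most abundant (2 a list) or differed 2-fold or more in both batches. Other genes were named after their values were seen, such as IL1B, RAC1, DNAJC15, CD44 and TNFAIP3. Members and lists were chosen with earlier results of these data known. Some genes of the lists are not reported here.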

Additional observations from a re-analysis of the deposited data

How the results depend on the processing

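The count of genes passing with LPS was 0 in edgeR. It was 11 in DESeq2, 1 in limma voom, 2 in a fit of the 8 p50 and cREL libraries alone and 291 without a filter on low counts, where 51 were higher and 240 lower in p50. Without LPS the count was 0, against 14 in DESeq2, 1 in the 8-library fit and 203 with no filter. For the difference in response it was 0, against 1 in DESeq2 and 19 with no filter. It was 0 in all 3 comparisons with median ratio size factors, with the effective length, without the batch term and without p65 replicate 1, and in limma voom for the last 2 comparisons. Leaving out a clone gave 0 to 67 genes with LPS, 0 to 105 without LPS and 0 to 0 for the response. With the replicate number as a block, in fits of the 4 libraries of 1 treatment, 0 genes passed with and without LPS, with 1 residual degree of freedom. For the response the block gave 0 in the 8-library fit, and blocking on the clone itself also gave 0. For the LPS response within a genotype, the clone block gave 6 genes in p50, 4 in cREL and 236 in CTR, against 3, 2 and 76 without it. For the named genes, of 1568 alternative values 66 had the opposite sign to the reported one, in 38 of 121 results, 61 passed where edgeR did not and 18 moved; HLA-DRA ranged from -4.11 to 0.86. The cause was not tested. With 2 clones a side, differences that hold in these clones may not hold in others, low counts such as those of USP44 and CCL20 limit precision, and RNA amplified by PCR from a small input without molecular identifiers adds noise that counting error does not cover.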
